A study of Arabidopsis thaliana with 6 samples.

Results

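UDP-glycosyltransferases (UGTs) form a large plant enzyme family, and 8 of its genes are described here in leaves of Arabidopsis thaliana. They are UGT73B4, UGT73B5, UGT73C1, UGT76E11, UGT76E12, UGT84A3, UGT87A2 and UGT88A1. Their probe sets were found by gene symbol in the platform annotation, 1 probe set for each gene, 8 of 22746 probe sets on the array after its controls were left out, and 8 of 13356 genes with a probe set of their own. They were chosen by the differences in signal between the genotypes seen earlier in these same arrays, so those differences are given as a description and without a test. Such probe sets exist for 51 genes that the annotation names as UGTs, these 8 and 43 others, and genes of the family that it lists without a UGT name are not counted among them.

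The enzymes move a sugar, most often glucose, from a UDP-sugar onto small molecules such as phenolics, flavonols, hormones and foreign compounds. The sugar makes the acceptor more soluble and usually less reactive, and many of the conjugates are stored in the vacuole. Several members of the family are known as stress genes, since their transcripts increase with oxidants, pathogens, oxylipins or xenobiotics.

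The mutant was flu, allele flu1-1, and the wild type was Landsberg erecta (Ler), the ecotype of both. FLU is a plastid protein that limits chlorophyll precursor synthesis in the dark. Without it protochlorophyllide accumulates in darkness, and the returning light then makes it release singlet oxygen inside the plastids. All plants were 3 weeks old, grown on soil in continuous light, kept dark for 8 h and sampled as rosette leaves after 30 min, 60 min or 2 h of renewed light.

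For every combination of genotype and time there was 1 Affymetrix ATH1 array, thus 3 of flu and 3 of Ler. No value has a replicate, and precision is limited by these 6 arrays. Each array carried pooled RNA of 2 experiments, with 5 to 6 plants per sample, so the spread between experiments is not in the values. There was no array from the end of the dark period. In whole leaves, fewer cells that express a gene and less RNA per cell cannot be told apart.

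Values are MAS5 signals, the brightness of a probe set after subtraction of its mismatch probes, on a linear scale. Differences are flu minus Ler on the scale log2(signal + 50), which makes those of dim genes smaller. Signals of different probe sets are not set against each other as levels. The median signal was 171 to 190 on the flu arrays and 179 to 193 on the Ler arrays, and the lower quartile 41.6 to 50.9 and 41.4 to 54.4. Hybridisation controls were dimmest on the flu array of 30 min, with a geometric mean of 532, against 781 and 975 on the other flu arrays. On the Ler arrays they were 902 to 1217, and the highest was that of 30 min. Cell type markers were matched by symbol, and most were not found that way. Of 11 leaf markers 3 were matched, LHCB4.1, PSBW and PRK. Their summed signal was 33875 to 38719 in flu and 47317 to 50580 in Ler. EXPA7, a root hair gene and 1 of 6 root markers, lay between 39.1 and 50.2 in flu and between 17.3 and 60.0 in Ler. FAMA, a guard cell regulator and 1 of 3 such markers, lay between 228 and 363 in flu and between 269 and 329 in Ler. No listed marker of flower, phloem or xylem was matched. The part of leaf makeup in the values below was not tested.

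At 2 h of light 7 of the 8 genes stood at least 2-fold higher in flu than in Ler, and UGT88A1 stood at least 2-fold lower. Among all 13069 probe sets tested, 10.1% were at least 2-fold higher and 5.5% at least 2-fold lower at that time. At 60 min 1 of the 8 was at least 2-fold higher, UGT73B5, and 1 at least 2-fold lower, UGT76E11, against 6.11% and 1.44% of all. At 30 min it was 0 of 8 in either direction, against 2.98% and 0.413% of all. In order of time, the 8 genes had median differences of -0.37, 0.09 and 2.14, and all tested probe sets had -0.04, -0.08 and -0.20. At 30 min all 8 differences were below 0, as were 55% of all. Of the 8 genes 6 had less than a 2-fold higher value at both earlier times and at least that at 2 h, a pattern of 5.03% of all, and 7 were below 0 at 30 min and at least 2-fold higher at 2 h, against 3.21% of all. Since the genes were picked with these differences known, nothing is read from how far they lie from the rest.

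**Figure D1:**
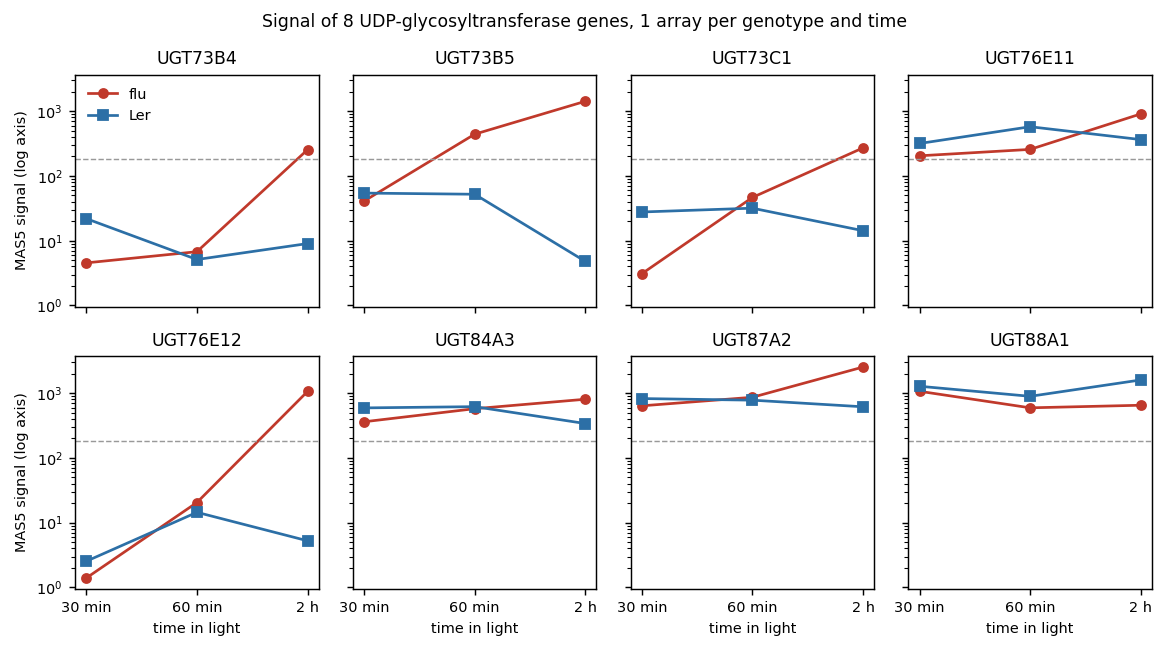
Signals (log axis) of the 8 genes against time in light, 1 panel per gene, 1 array per point; red circles are flu, blue squares Ler, and the dashed line is the median of all signals, 185. At 2 h the flu point lies above the Ler point in 7 panels and below it for UGT88A1.

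The 73B genes UGT73B4 and UGT73B5 are stress-responsive members of a subfamily that glucosylates flavonols in vitro, and they lie side by side in the genome. UGT73B5 (AT2G15480) had signals of 40.9, 442 and 1423 in flu at the 3 times, against 54.4, 52.2 and 4.80 in Ler. The genotypes were close at 30 min and far apart at both later times, and the flu array of 30 min was below the highest Ler array. Its differences were -0.20, 2.27 and 4.75. It was the only one of the 8 with a difference of at least 2-fold in the higher direction at 60 min. Part of the gap at 2 h lies in the Ler array, whose signal stood at percentile 4.20 of its array, with 24.99 and 28.9 on the earlier Ler arrays. The size at 2 h therefore moves with the offset, from 3.83 with signals under 100 set to 100 to 6.11 with an offset of 16.

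UGT73B4 (AT2G15490) had signals of 4.55, 6.77 and 254 in flu leaves against 21.9, 5.12 and 9.04 in Ler. Only the flu array of 2 h was above the lower quartile of its array, and the other 5 values overlap. The differences were -0.40, 0.04 and 2.37. Thus the adjacent pair differed in time: at 60 min UGT73B5 had a difference of 2.27 and UGT73B4 one of 0.04. AT2G15500, the next gene on the other side of UGT73B4, had -0.49, -0.12 and -0.19.

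UGT73C1 (AT2G36750) belongs to a neighbouring branch whose enzymes conjugate cytokinins and foreign compounds such as trinitrotoluene in vitro. Its signals were 3.09, 46.6 and 272 in flu leaves against 27.8, 31.8 and 14.3 in Ler. The flu arrays held both the lowest and the highest of the 6 values, so the genotypes overlap. The differences were -0.55, 0.24 and 2.32. UGT73C2, the next gene, was dim throughout, with 22.1, 17.0 and 7.93 in flu leaves against 21.1, 2.76 and 28.3 in Ler.

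UGT76E11 and UGT76E12 belong to a group with flavonoid glucosyltransferases, and 1 other protein-coding gene lies between them. UGT76E12 (AT3G46660) had signals of 1.40, 20.5 and 1065 in flu leaves against 2.54, 14.5 and 5.25 in Ler. It lay below the lower quartile on 5 of the 6 arrays and was bright on the flu array of 2 h. The differences were -0.03, 0.13 and 4.33, and the last was 3.41 with signals under 100 set to 100 and 5.67 with an offset of 16, since the Ler signal was at percentile 4.83 of its array.

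UGT76E11 (AT3G46670) behaved otherwise, with signals of 205, 257 and 909 in flu leaves against 317, 576 and 365 in Ler. It was well above the lower quartile on every array, it was lower in flu at 30 and 60 min, and it was higher in flu at 2 h. Its differences were -0.53, -1.03 and 1.21. At 60 min the Ler signal was the highest of the 3 Ler values, while the flu signal was within 0.27 on the log2 scale of that at 30 min. The genes on the outer sides of the pair, AT3G46650 and AT3G46680, were dim on all arrays, with differences at 2 h of 0.01 and -0.08. The annotation gives neither a UGT name, so both are outside the counts of other UGTs below.

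UGT84A3 (AT4G15490) makes glucose esters of hydroxycinnamic acids. Its signals were 362, 576 and 806 in flu leaves against 592, 619 and 340 in Ler. The orders ran in opposite directions, since the flu value was lowest and the Ler value near its highest at 30 min, and at 2 h the flu value was highest and the Ler value lowest. The differences were -0.64, -0.10 and 1.13. Its neighbours of the same subfamily, UGT84A4 and UGT84A1, were too dim to be among the tested probe sets. UGT84A4 had differences of 0.08, -0.07 and -0.06. UGT84A1 had signals of 3.37, 5.27 and 51.0 in flu leaves against 4.76, 15.3 and 12.3 in Ler. The differences of UGT84A1 were -0.04, -0.24 and 0.70. The scale makes differences of dim genes smaller, so the sizes for UGT84A1 and UGT84A3 at 2 h are not ranked.

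UGT87A2 (AT2G30140) is known for an effect on flowering time and on tolerance of drought and salt. It had signals of 638, 865 and 2533 in flu leaves against 826, 780 and 616 in Ler. The flu array of 2 h stood apart from the other 5, among which the genotypes overlap. The differences were -0.35, 0.14 and 1.95, a 3.88-fold higher value in flu at 2 h. AT2G30150, the next gene, pointed the other way, with signals of 261, 228 and 264 in flu leaves against 360, 477 and 616 in Ler and differences of -0.40, -0.92 and -1.08. The annotation gives AT2G30150 no UGT name, so it is outside the counts of other UGTs below, also that of genes at least 2-fold lower.

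UGT88A1 (AT3G16520), whose enzyme glucosylates flavonols such as quercetin in vitro, was the one gene of the 8 that was lower in flu at 2 h. Its signals were 1069, 594 and 651 in flu leaves against 1279, 895 and 1601 in Ler. Both later flu values were the lowest of the 6, while Ler had its lowest value at 60 min and its highest at 2 h. The differences were -0.25, -0.55 and -1.24, negative at all 3 times, and the value at 2 h was 2.35-fold lower in flu. The flu array of 30 min was above the Ler array of 60 min, so the genotypes overlap.

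**Figure D2:**
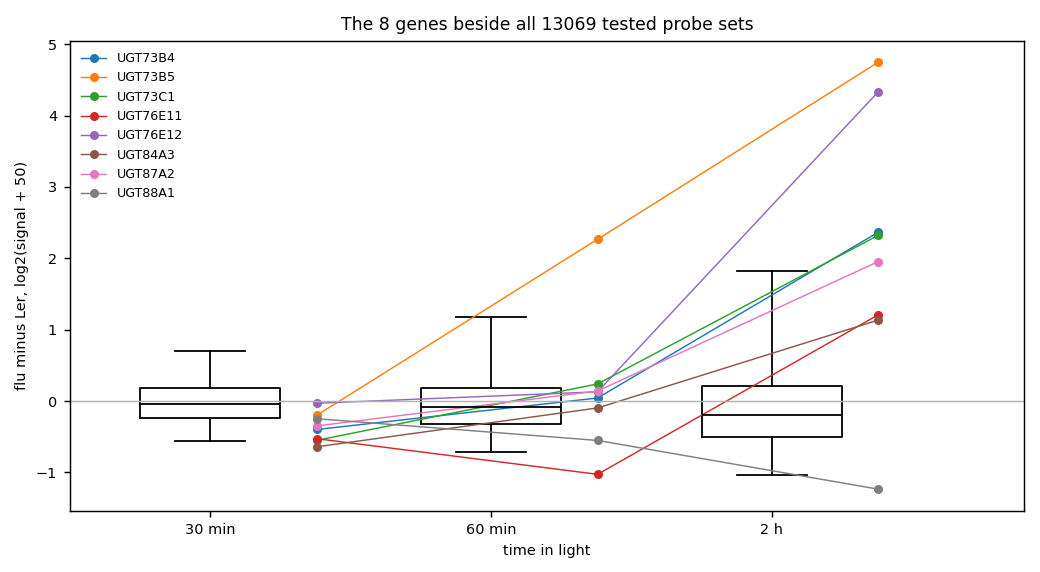
Difference between flu and Ler on the scale log2(signal + 50) at each time; boxes show the median and quartiles of all 13069 tested probe sets with whiskers at percentiles 5 and 95, and coloured points, joined by lines and drawn right of each box, are the 8 genes. All 8 points are at or below 0 at 30 min, and 7 are above 1 at 2 h.

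Within flu, the step from 60 min to 2 h was at least 2-fold upwards for 6 of the 8 genes, against 4.38% of all tested probe sets, and the step from 30 to 60 min for 1 of 8, against 2.75%. The exceptions at the later step were UGT84A3, with log2 differences between times of 0.60 and then 0.45, and UGT88A1, with -0.80 and then 0.12. From 30 min to 2 h, 7 of 8 were at least 2-fold higher in flu leaves, against 7.43% of all, from 1.06 for UGT84A3 to 4.44 for UGT76E12. In Ler the same interval gave 0 of 8 in either direction, against 1.34% higher and 1.4% lower. There the values ran from -0.93 for UGT73B5 to 0.31 for UGT88A1, while the median was 2.196 in flu and -0.28 in Ler. Each of these steps compares 1 array with 1 array, and those of flu and the differences to Ler share arrays.

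**Figure D3:**
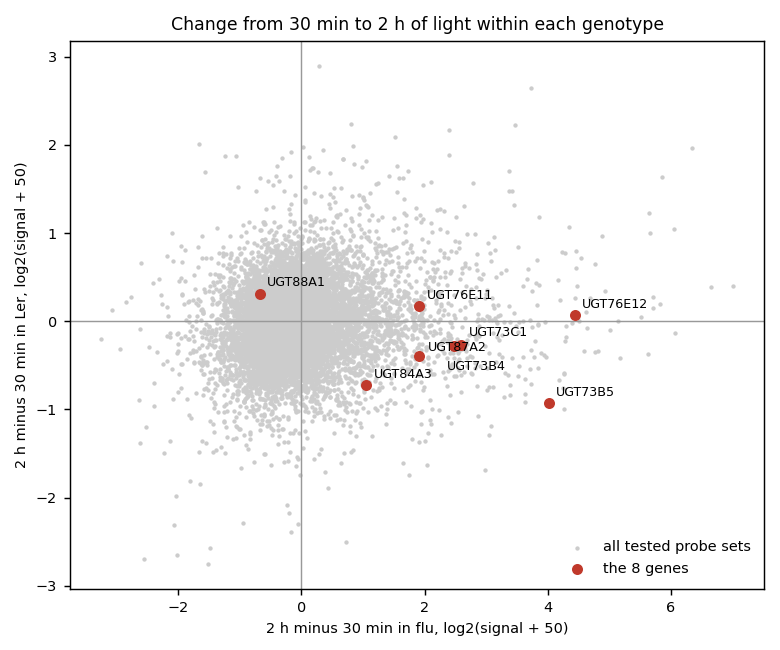
Difference between 2 h and 30 min within flu (horizontal axis) and within Ler (vertical axis), both on the scale log2(signal + 50); red points are the 8 genes and grey points all 13069 tested probe sets. Of the 8 genes 7 lie right of 1 on the flu axis, and all 8 lie between -0.93 and 0.31 on the Ler axis.

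All 8 genes passed the filter on dim probe sets, which asked for a signal of 185 or more on at least 1 array. Of all 13069 probe sets that passed, 755 did so through flu arrays alone and 602 through Ler arrays alone. UGT73B4, UGT73B5, UGT73C1 and UGT76E12 passed through flu arrays alone, so 4 of the 8 could enter only by being bright in flu. The flu minus Ler differences of the 8 genes are not tested here for that reason and because they were used in the choice.

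The other genes named as UGTs were measured by 43 probe sets of a single gene, of which 15 passed the filter on dim signals. Of these 15, 3 passed through flu arrays alone and 1 through Ler arrays alone, against 755 and 602 of all 13069. In the fit across the 3 times (limma, time and genotype additive, Benjamini-Hochberg adjusted p under 0.05) none of these 15 was called higher or lower in flu (0 and 0), against 2.87% and 0.375% of all tested probe sets. By the raw p under 0.05 there was 1 in each direction, against 9.2% higher and 11.2% lower of all. That fit takes a difference that grows with time as noise. In order of time, the 43 had median differences of -0.03, 0.03 and -0.03, and the 15 had 0.03, 0.16 and 0.01. At 2 h 1 of the 43, UGT73D1, was at least 2-fold higher in flu and 0 were at least 2-fold lower, in a range from -0.89 to 1.29. UGT73B1, UGT73D1 and UGT72E1 were the 3 that entered the fit only through flu arrays, and UGT72B3 the one only through Ler arrays. UGT73D1 had signals of 38.5, 74.1 and 190 in flu leaves against 27.0, 59.1 and 48.5 in Ler.

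Of the tested others, the highest mean differences over the 3 times were those of UGT73B1 (0.66, SE 0.31, limma adjusted p = 0.295), UGT73D1 (0.56, SE 0.43, adjusted p = 0.499), UGT71C5, which conjugates abscisic acid (0.46, SE 0.17, adjusted p = 0.216), and UGT74B1 of glucosinolate synthesis (0.28, SE 0.18, adjusted p = 0.416). The lowest were UGT78D1, which adds rhamnose to flavonols (-0.69, SE 0.28, adjusted p = 0.236), UGT72B3 (-0.50, SE 0.24, adjusted p = 0.304), UGT78D2, a flavonoid glucosyltransferase (-0.22, SE 0.17, adjusted p = 0.483), and UGT71C4 (-0.20, SE 0.15, adjusted p = 0.490). UGT78D1 had signals of 266, 201 and 404 in flu leaves against 244, 554 and 791 in Ler, so its lower values in flu stood at 60 min and 2 h.

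A further 3 probe sets were annotated to several genes, at least 1 of them a UGT, and are not named. One was too dim for the fit, with differences of 0.32, 0.12 and 0.13, and another had -0.58, -0.25 and 0.44 (mean -0.13, SE 0.24, limma adjusted p = 0.785). The third, annotated to 2 genes of the 73B subfamily, had signals of 1480, 3924 and 3468 in flu leaves against 272, 256 and 151 in Ler. It was higher in flu at 3 of 3 times, by a mean log2 difference of 3.36 (SE 0.36, limma adjusted p = 0.00637, range over the alternatives 2.6e-06 to 0.0859). It did not pass without the arrays of 60 min (3.19, adjusted p = 0.0859). Its difference at 30 min was 2.25, a time at which UGT73B4 and UGT73B5 had -0.40 and -0.20.

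**Figure D4:**
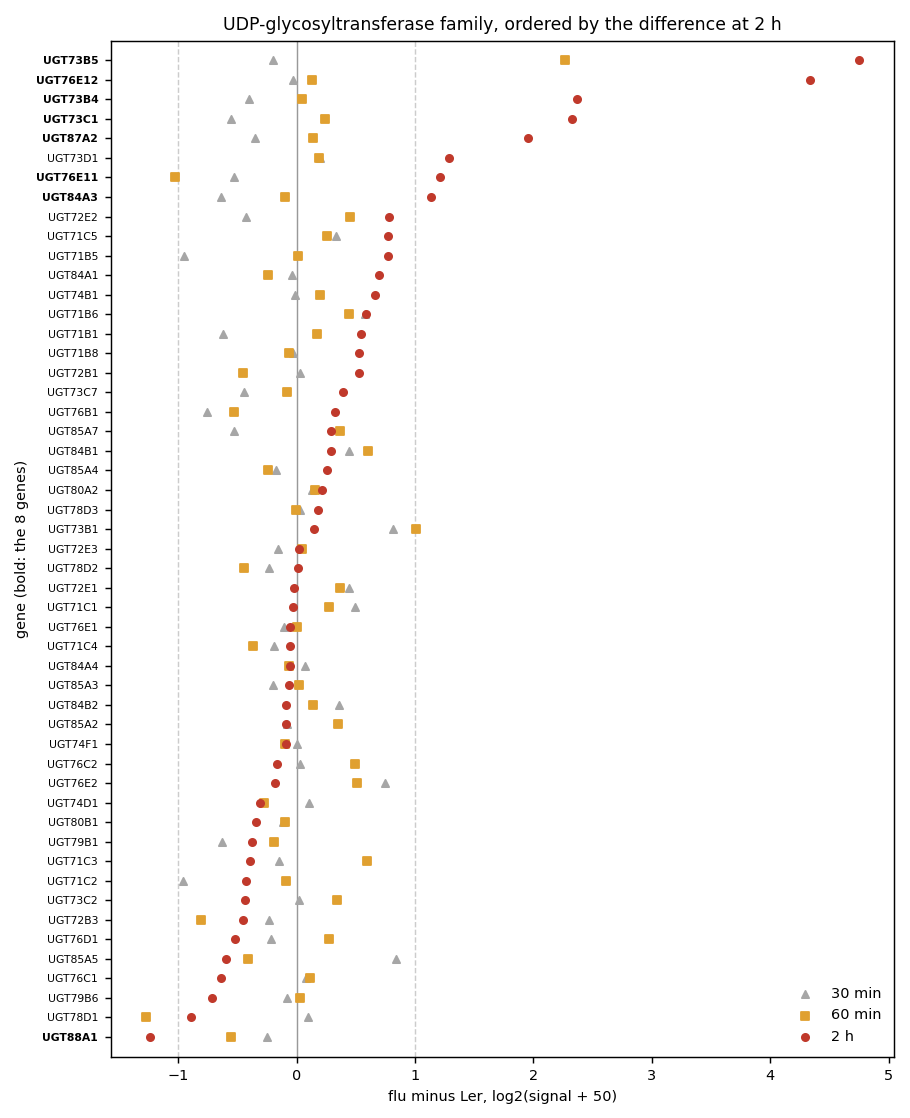
Difference between flu and Ler on the scale log2(signal + 50) for the 51 genes named as UGTs with a probe set of their own, ordered by the value at 2 h; red circles are 2 h, ochre squares 60 min, grey triangles 30 min, dashed lines mark 2-fold, and bold names are the 8 genes. Beside the 8 genes, UGT73D1 is the one gene past the 2-fold line at 2 h on this scale, which makes differences of dim genes smaller.

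Other UGTs, and genes that work with these enzymes, were followed in 10 lists by acceptor, sugar supply, transport, regulation and hydrolysis. The lists held 112 entries, 36 of them with a probe set named here and 20 of them tested. Of those 20 genes limma's fit called 0 in either direction after adjustment, while by the raw p under 0.05 it had 3 higher and 1 lower in flu, beside the 9.2% and 11.2% of all. Through flu arrays alone 5 of the 20 entered the fit, GRX480, BGLU46 and 3 of the UGTs above, and BGLU47 through Ler arrays alone, against 755 and 602 of all 13069. The acceptor lists held the UGTs described above, and their remaining named genes were UGT72E1 (0.26, SE 0.23, adjusted p = 0.554) and UGT72B1 (0.03, SE 0.22, adjusted p = 0.945) for monolignols and related phenolics, UGT76C2 (0.12, SE 0.22, adjusted p = 0.779) for cytokinins, UGT74D1 (-0.16, SE 0.16, adjusted p = 0.606) for auxins, and UGT80B1 (-0.18, SE 0.16, adjusted p = 0.542) for sterols.

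GRX480, a glutaredoxin that binds TGA factors, was the one tested gene of the regulators of detoxification, with signals of 397, 2886 and 4314 in flu leaves against 170, 160 and 170 in Ler. It was far higher in flu at 60 min and 2 h, but did not pass (3.05, SE 0.60, adjusted p = 0.0592, range over the alternatives 0.00160 to 0.379). GRX480 entered the fit through flu arrays alone, so nothing is read from these p-values. The glucosidases BGLU46 (0.78, SE 0.35, adjusted p = 0.275) and BGLU23 (0.75, SE 0.27, adjusted p = 0.204), of enzymes that take glucose off such conjugates, did not pass either. The other 3 tested glucosidases had mean differences below 0, from -0.40 to -0.20, and the median of all 5 was -0.20, against -0.11 of all tested probe sets. REF1, an aldehyde dehydrogenase of sinapate synthesis, had 0.08 (SE 0.16, adjusted p = 0.799) and USP, a UDP-sugar pyrophosphorylase, -0.07 (SE 0.15, adjusted p = 0.802). List entries were matched by symbol in the annotation, which found 0 of the 10 for vacuolar transport and 1 of the 17 for phenylpropanoid supply. It found 1 of the 15 regulators of detoxification and 1 of the 14 for UDP-glucose supply. The unmatched genes were not analysed here, so GRX480 and USP do not stand for their lists.

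The profiles of the 8 genes over the 6 arrays, each centred on its own mean, were compared by their root mean square difference, and for each gene the nearest 2 of 6930 tested probe sets of a single gene are named. UGT73C1 and UGT87A2 were the closest pair among the 8 (0.21 on the log2 scale), and UGT73B5 and UGT88A1 the most distant (2.09). The offset shrinks changes of dim genes such as UGT73C1. With an offset of 16, the flu minus Ler difference at 2 h was 3.25 for UGT73C1 and 2.01 for UGT87A2. With the main offset these were 2.32 and 1.95. The distances are given for the main offset only, so the closeness of this pair holds for that scale. The adjacent UGT73B4 and UGT73B5 lay 1.101 apart, and UGT76E11 and UGT76E12 1.15.

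Nearest to UGT73B4 were AT5G51830 (0.13) and GSTU25, a glutathione transferase of the tau class (0.14), and nearest to UGT73B5 were CCR2, a cinnamoyl-CoA reductase gene (0.37), and AT2G32150 (0.40). CCR2 had signals of 5.70, 237 and 1332 in flu leaves against 11.5, 8.57 and 8.49 in Ler. For UGT76E12 the nearest were AT1G76640, the calmodulin-like gene CML39 (0.16), and AT2G21640 (0.23). For UGT73C1 they were AT3G13910 (0.12) and AT5G64230 (0.13), for UGT76E11 AT2G36630 (0.18) and AT4G30460 (0.19), and for UGT84A3 AT4G19450 (0.14) and AT2G39500 (0.14). UGT87A2 had AT1G44414 (0.06) and AT5G54170 (0.09) beside it, and UGT88A1 had AT4G38700 (0.12) and AT3G10760 (0.13). These distances describe 6 arrays that share 2 genotypes and 3 times. They too hold for the main offset only, which shrinks changes of dim genes. At 2 h AT1G44414 had signals of 343 in flu and 46.1 in Ler, against 2533 and 616 for UGT87A2.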

How the data were processed

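Per the labels' protocols and the design text, pooled total RNA of 2 experiments was hybridised to ATH1 arrays. The authors deposited MAS5 signals, an intensity per probe set, and the submitters' processing notes name MAS5, whose version is not given in the sources used here. The 2% trimmed mean was 500.0 on each array, so the authors had scaled them. Genotype and time came from the titles.

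Of 22810 probe sets 64 controls were left out. Of the remaining, 13513 had 1 gene in the platform annotation, 503 several and 8730 none, and 13436 of the first matched a RefSeq gene table (TAIR10.1, used for names and gene order). The files name no build, so no coordinates are given. Table symbol CHI, a chitinase gene, was not taken for the list's chalcone isomerase.

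Each array was brought to a trimmed mean of exactly 500, and 50 was added before taking log2. The 13069 probe sets with a highest signal of at least 185, the median, entered limma 3.58.1 (R 4.3.3, lmFit, eBayes with trend, time as a factor, Benjamini-Hochberg). The residual of 2 degrees of freedom holds array noise and any change of the difference with time. On simulated data (13069 probe sets, 200 changed) this fit recovered 3% of 2-fold and 79% of 4-fold changes present at every time. The genes, lists and alternatives were chosen with earlier results of these data known. Beside the 8 genes, the text names the 4 highest and 4 lowest other UGTs, up to 2 genes per list and the 2 nearest profiles per gene. Adjacent genes, the probe set of 2 genes of the 73B subfamily and UGT73C2, UGT84A1 and UGT84A4 were added after their values were seen.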

Additional observations from a re-analysis of the deposited data

Results flagged for a closer look

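For 7 of the 8 genes the difference between flu and Ler had one sign at 30 min and the other at 2 h. It was negative at 30 min and positive at 2 h for UGT73B4 (-0.40 and 2.37), UGT73B5 (-0.20 and 4.75), UGT73C1 (-0.55 and 2.32), UGT76E11 (-0.53 and 1.21), UGT76E12 (-0.032 and 4.33), UGT84A3 (-0.64 and 1.13) and UGT87A2 (-0.35 and 1.95). Each value rests on 1 array per genotype, and the difference between the times was not tested. At 30 min 55% of all tested probe sets were below 0, and 3.21% were below 0 at 30 min and at least 2-fold higher in flu at 2 h. For UGT73B4, UGT73B5, UGT73C1 and UGT76E12 both signals at 30 min were below 55, so their negative values there compare dim signals. The flu array of 30 min also had the lowest hybridisation controls (532) and the Ler array of 30 min the highest (1217). The part of this in the values was not tested.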

How the results depend on the processing

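The counts of the 8 genes at least 2-fold higher in flu, 0, 1 and 7 at the 3 times, were the same with an offset of 16 or 100, quantile normalization, no rescaling, or signals under 100 set to 100, the last chosen after the data were seen. UGT76E11, at least 2-fold lower in flu at 60 min (-1.03), was less than 2-fold lower with an offset of 100 (-0.92). The median difference of the 8 genes at 2 h, 2.14, was 2.63 with an offset of 16, 1.70 with 100 and 1.39 with signals under 100 set to 100, since dim Ler signals weigh less or more. Among other UGTs with a probe set of their own, 0 of the tested genes passed in either direction in all alternatives run. Of all tested probe sets, 2.87% were called higher and 0.375% lower in the main setting. Over all probe sets, 375 were higher and 49 lower in flu. The lower ones numbered 14 without a filter, 77 with a filter at the 75th percentile, 15 without a trend in the variance prior and 131 without time. Leaving out 1 time gave 75 (without 60 min) to 584 (without 2 h) higher and 0 (without 60 min) to 134 (without 30 min) lower. Of the named genes GRX480 passed with the stricter filter and without 30 min or 2 h. It entered the fit through flu arrays alone, so nothing is read from these calls. BGLU23 passed without 2 h, while the probe set of 2 genes of the 73B subfamily did not pass without 60 min (3.19). Time as a factor pairs the genotypes within each time, and without it 426 were higher. No detection calls were used, so dim signals carry no known error.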
